A study of Homo sapiens with 12 samples.

Results

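The genes described here code mostly for core parts and regulators of the spliceosome, which removes introns from pre-mRNA, with exceptions such as LSM10 and LSM14A. They were taken by symbol: every gene whose symbol starts with HNRNP, SRSF, SF3A, SF3B, SNRP, PRPF or LSM and a digit, together with TIA1, TIAL1, U2AF1, U2AF2, TRA2A, TRA2B, PTBP1 and PTBP2, with the brightest probe set that names 1 gene standing for each. The rule uses no difference between groups. It found 80 genes of 10346 with a single-gene probe set. Of these 75 were bright enough to be tested, and LSM11, PRPF38B, PRPF39, PRPF40B and PTBP2 were not. Symbols found only on probe sets that name several genes, 9 in all and SRSF2, SRSF9, HNRNPH2 and SNRPN among them, were not used.

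The cells were U251, a human glioblastoma line, transfected with pools of small interfering RNA (siRNA), and total RNA was measured on Affymetrix expression arrays. There were 4 groups of 3 arrays. The double group received ETV6 siRNA and NFKB1 siRNA together, the next received ETV6 siRNA alone, the next NFKB1 siRNA alone, and the control group received an siRNA without a known human target. Each siRNA was used at 50 nM. The labels do not say whether control cells got as much siRNA in all as the double group, so the total load of siRNA and the loss of both factors cannot be told apart. ETV6 is an ETS-family transcriptional repressor and NFKB1 codes for the p105 and p50 subunit of NF-kB. A transient knock-down in 1 tumour line is the whole model, and a lower level in such bulk RNA may reflect fewer cells of a state or less RNA per cell, which cannot be told apart.

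Introns are recognised in steps. The U1 snRNP, a particle of small nuclear RNA and protein, binds the start of an intron, and U2AF binds its end and brings in the U2 snRNP, whose SF3A and SF3B complexes hold the branch point. The U4/U6 and U5 snRNPs then join, and PRPF proteins rearrange and activate the assembly. Most snRNPs carry a ring of Sm proteins, and U6 carries a ring of LSM proteins. SR proteins and TRA2 proteins mostly promote the use of exons, hnRNP and PTBP proteins often oppose it, and TIA1 and TIAL1 help U1 at weak splice sites.

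The targets were low where they should be by label. ETV6 read 7.44, 7.36 and 7.29 in double siRNA arrays, 6.80, 6.78 and 6.60 with ETV6 siRNA, 8.73, 8.72 and 8.64 with NFKB1 siRNA, and 9.02, 9.02 and 8.58 in control arrays (log2 probe set level, as all levels here). This is 35.1% of the control level with double siRNA and 22.6% with ETV6 siRNA. NFKB1 read 6.50, 6.58 and 6.57 in double siRNA arrays, 7.85, 7.74 and 7.85 with ETV6 siRNA, 6.95, 6.75 and 6.05 with NFKB1 siRNA, and 7.22, 7.24 and 7.49 in control arrays. Its level was 58.8% of control with double siRNA and 60.3% with NFKB1 siRNA, a partial loss. NFKB1 averaged 7.07, under the filter on low levels, and was kept as a target of the siRNA. Of 10 glioma and astrocytic markers 8 were in the table and all 8 lay over the filter, with VIM at 14.5 and GFAP at 13.3 on average. Of 9 markers of other cell types only SYT1 was in the table, at 7.06 and under the filter.

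The 3 double siRNA arrays stood apart from the other 9 in some measures of the arrays. Their poly-A spike probe sets averaged 7.97 to 8.05, against 8.37 to 9.35 in the other 9. The difference between the 3′ and 5′ probe sets of ACTB was 2.05 to 2.16 in double siRNA arrays and 1.52 to 1.91 in the others. The lowest value on an array was 4.88 to 5.10 against 3.05 to 3.79. Other measures overlapped. The 3′ to 5′ difference of GAPDH was 0.46 to 0.51 against 0.37 to 0.54, and hybridization spike probe sets averaged 10.66 to 10.92 against 10.83 to 11.35. The array properties that differed and the double treatment cannot be told apart. The third control array, with the 1.91, leaned toward the double arrays: among 59 splicing genes called with double siRNA, 50 lay on the same side in that array relative to the other controls. The same count was not made over all genes, so it does not show whether this lean was particular to the splicing genes. That array's difference from the other controls had a median size of 0.12 in splicing genes and 0.15 over all genes tested. The part of the third control array in each result was checked by leaving it out.

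Promoters of 5 of the genes are shown first, because these genes carried the largest differences: TIA1 and SF3B1 upward and LSM2 and SF3A2 downward with double siRNA, and HNRNPA3 downward with NFKB1 siRNA. Each is the 250 bases before the gene's start, 5′ to 3′ on the gene's strand, from RefSeq on GRCh38.p14. Capitals mark an exact match, on either strand, to an NF-kB motif (GGG, then 2 bases of any kind, then TTTCC) or to the ETS core CCGGAAG, and the motifs do not overlap each other. The regions are chr2:70248794-70249043 (minus strand) for TIA1, chr2:197435029-197435278 (minus) for SF3B1, chr6:31806967-31807216 (minus) for LSM2, chr19:2236574-2236823 (plus) for SF3A2 and chr2:177212544-177212793 (plus) for HNRNPA3.
TIA1: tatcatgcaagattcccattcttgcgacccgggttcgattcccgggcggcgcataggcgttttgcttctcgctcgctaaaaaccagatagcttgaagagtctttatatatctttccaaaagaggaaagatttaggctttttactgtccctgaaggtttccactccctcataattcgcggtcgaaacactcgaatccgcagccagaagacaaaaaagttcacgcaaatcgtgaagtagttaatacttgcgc
SF3B1: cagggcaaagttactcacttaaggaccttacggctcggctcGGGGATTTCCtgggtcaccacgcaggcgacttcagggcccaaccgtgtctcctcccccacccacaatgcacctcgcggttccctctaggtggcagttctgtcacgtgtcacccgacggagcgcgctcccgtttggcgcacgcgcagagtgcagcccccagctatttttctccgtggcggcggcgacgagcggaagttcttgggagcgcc
LSM2: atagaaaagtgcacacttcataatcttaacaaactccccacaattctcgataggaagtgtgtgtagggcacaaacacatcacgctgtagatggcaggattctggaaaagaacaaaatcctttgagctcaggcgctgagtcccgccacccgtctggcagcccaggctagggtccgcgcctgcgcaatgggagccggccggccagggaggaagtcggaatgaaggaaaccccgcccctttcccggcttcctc
SF3A2: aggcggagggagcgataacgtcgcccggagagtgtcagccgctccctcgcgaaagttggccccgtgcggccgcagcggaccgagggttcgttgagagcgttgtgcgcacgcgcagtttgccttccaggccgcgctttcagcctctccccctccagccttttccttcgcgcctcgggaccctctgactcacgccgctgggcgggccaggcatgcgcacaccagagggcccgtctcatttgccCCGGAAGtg
HNRNPA3: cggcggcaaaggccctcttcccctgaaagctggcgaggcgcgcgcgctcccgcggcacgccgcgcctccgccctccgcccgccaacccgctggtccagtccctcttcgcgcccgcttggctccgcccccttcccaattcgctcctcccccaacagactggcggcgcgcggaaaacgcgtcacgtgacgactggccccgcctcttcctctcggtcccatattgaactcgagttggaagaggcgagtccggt
The SF3B1 window holds 1 NF-kB match, from base -209 to base -200 before the start, and the SF3A2 window holds 1 ETS match from base -9 to base -3. In the other 3 windows neither set of letters occurs.

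With both siRNAs, most splicing genes differed from control, and some families went different ways. SF3B1 was 2.00-fold higher, and 7 of 11 SR and TRA2 genes rose. TIA1 was 4.48-fold higher, but it passed the filter on low levels only through its double siRNA arrays, so the fold is a description. The partners of SF3B1 in the U2 snRNP mostly fell, with 7 of 9 SF3A and SF3B genes lower, as did both U2AF genes, 7 of 11 Sm and snRNP genes and 7 of 12 LSM genes. In all 59 of 75 genes (78.7%) were called by limma at an adjusted p under 0.05, 20 higher and 39 lower, or 58 of 74 without TIA1. Over all 7760 genes tested 80.9% were called, 31.9% higher and 49% lower, so the share among the splicing genes was near the background. The LSM genes (58.3% lower) and the hnRNP genes (26.3% higher and 47.4% lower) also lay near these shares. The median log2 change of the splicing genes, −0.13, was that of all genes, −0.13. Where each array was shifted to the same median, the medians were −0.24 for the splicing genes and −0.24 for all genes, with 15 higher and 45 lower. A fold over 1.5 was reached by 5 genes upward, TIA1 among them, and 12 downward, against 1284 and 1075 of the 7760 genes tested.

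**Figure D1:**
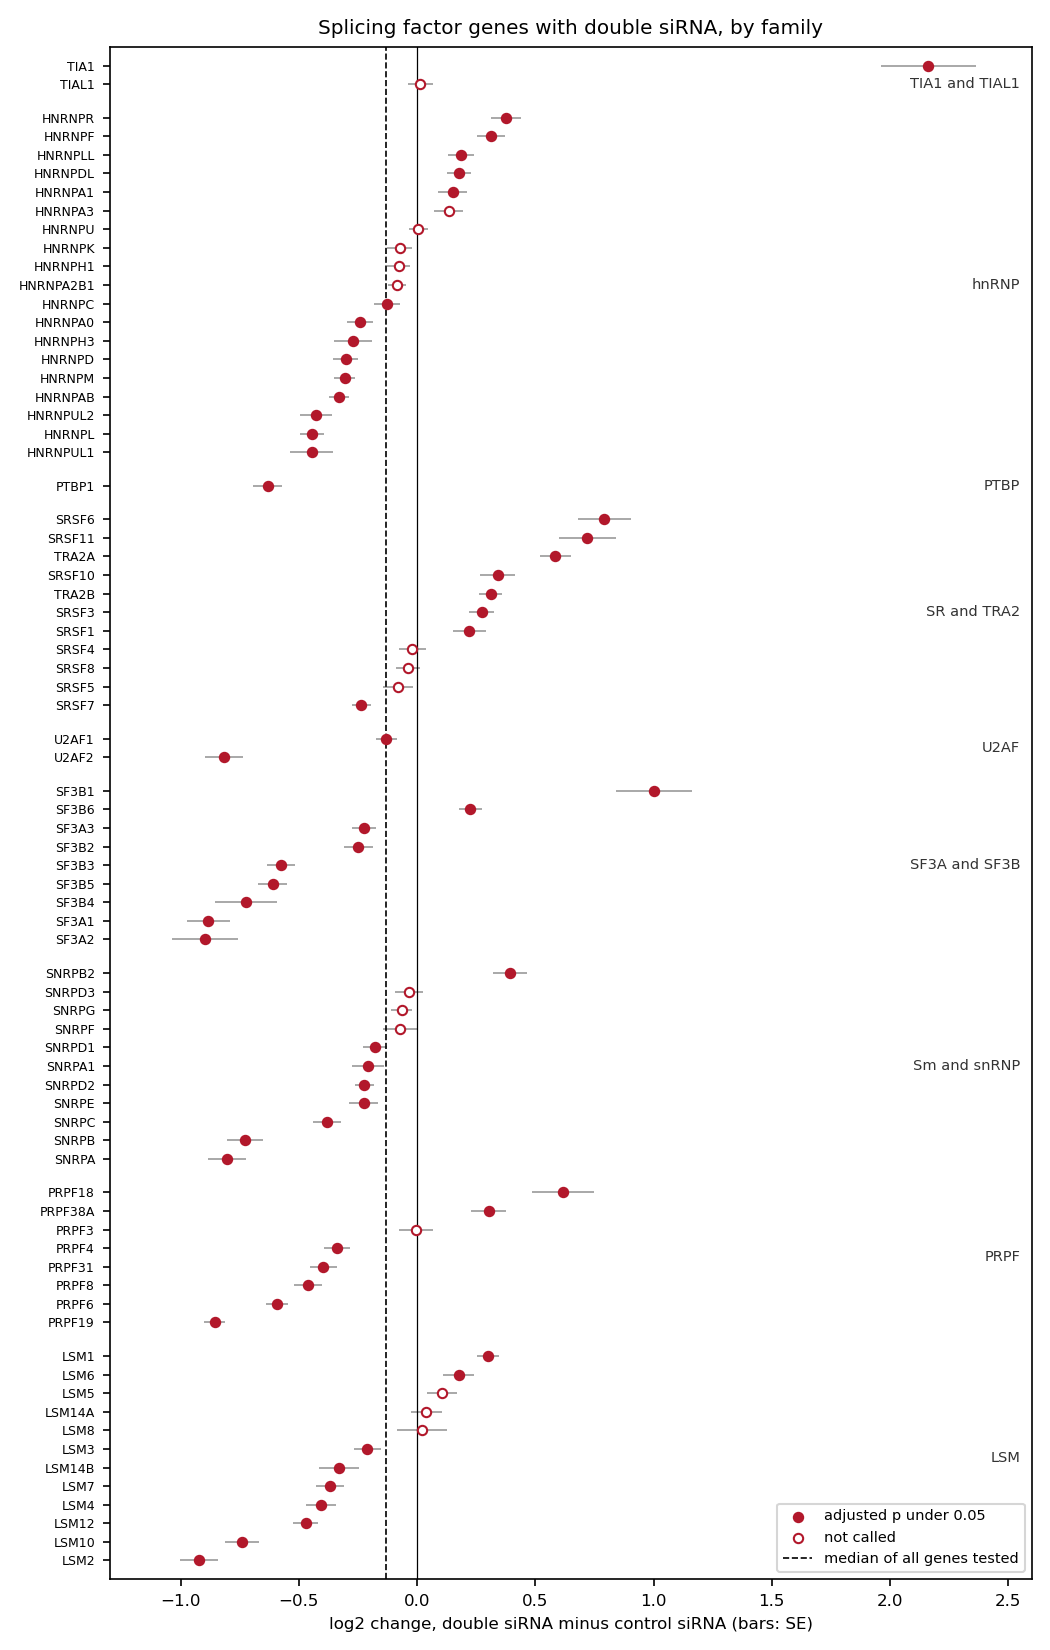
Log2 change of each of the 75 tested splicing genes in double siRNA minus control siRNA arrays (horizontal axis), grouped by family, with bars for the standard error (n = 3 arrays a group), filled points for adjusted p under 0.05 and a dashed line at the median of all genes tested (−0.13). TIA1 lies at 2.16 and SF3B1 at 1.00, while LSM2, SF3A2, SF3A1, PRPF19, U2AF2 and SNRPA lie between −0.92 and −0.80.

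TIA1 codes for an RNA-binding protein that contacts uridine-rich sequence just inside introns and is also a core protein of stress granules. It read 9.76, 9.63 and 9.74 in double siRNA arrays, 7.35, 7.81 and 7.64 with ETV6 siRNA, 7.40, 7.56 and 7.32 with NFKB1 siRNA, and 7.12, 7.42 and 8.11 in control arrays. Every double array lay above the other 9 by more than the spread among those. The mean over those 9 arrays was 7.52, under the filter at 7.54, and no other gene of the 75 owed its pass to a single group. Its p-values are therefore taken from the limma fit with no filter, over 10346 genes. The log2 change against control was 2.16 ± 0.20 (SE of the filtered fit, n = 3 a group, adjusted p = 7.60e-06 with no filter), and without the third control array, the highest of the controls, it was 2.44. TIA1 has 5 probe sets and all 5 were higher, by 1.47 to 2.16 on the log2 scale. The other 4 lay under the filter.

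TIAL1, its paralog with a like function, read 10.51, 10.54 and 10.54 in double siRNA arrays, 10.42, 10.37 and 10.48 with ETV6 siRNA, 10.45, 10.41 and 10.32 with NFKB1 siRNA, and 10.43, 10.55 and 10.57 in control arrays. The double and control arrays overlapped, and the log2 change between them was 0.01 ± 0.05 (SE, adjusted p = 0.823). The double arrays lay above those of both single knock-downs. TIAL1 was called higher against NFKB1 siRNA, by 0.14, but not where each array was shifted to the same median (−0.06). Its 2 dim probe sets, both under the filter, were higher by 0.76 and 0.54, so the probe sets of TIAL1 did not give 1 answer.

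SF3B1, the large SF3B subunit that clamps the branch point, read 12.02, 12.03 and 11.98 in double siRNA arrays, 10.88, 10.98 and 10.89 with ETV6 siRNA, 10.43, 10.44 and 10.62 with NFKB1 siRNA, and 10.70, 10.81 and 11.52 in control arrays. The double arrays lay above the other 9, and the third control array lay nearest to them. The log2 change was 1.00 ± 0.16 (adjusted p = 0.000136), or 1.26 without that control array, and its 5 probe sets gave 0.84 to 1.08. SF3B6, the small subunit beside the branch point adenosine, also rose, with 12.21, 12.23 and 12.17 in double siRNA arrays against 11.97, 11.91 and 12.05 in control arrays (log2 change 0.23, adjusted p = 0.000865). The change was 0.12 where each array was shifted to the same median.

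The other 7 SF3A and SF3B genes fell. SF3A1 read 9.39, 9.50 and 9.60 in double siRNA arrays, 10.40, 10.35 and 10.30 with ETV6 siRNA, 10.55, 10.49 and 10.31 with NFKB1 siRNA, and 10.48, 10.47 and 10.18 in control arrays. SF3A2 read 7.52, 7.69 and 7.75 in double siRNA arrays, 8.62, 8.52 and 8.42 with ETV6 siRNA, 8.80, 8.55 and 8.29 with NFKB1 siRNA, and 8.77, 8.60 and 8.27 in control arrays. Both subunits belong to SF3A, which joins the U2 snRNP to form its mature shape, and in both genes the double and control arrays did not overlap. The log2 changes were −0.88 ± 0.09 for SF3A1 (adjusted p = 6.18e-06), the same way in its 4 probe sets (−0.88 to −0.59), and −0.90 ± 0.14 for SF3A2 (adjusted p = 0.000106). The third SF3A gene, SF3A3, changed less, at −0.22. In the SF3B complex, SF3B4 changed by −0.72, SF3B5 by −0.61, SF3B3 by −0.58 and SF3B2 by −0.25. The family's median was −0.58 over 9 genes.

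U2AF2 codes for the large U2AF subunit, which binds the pyrimidine tract before the end of an intron. It read 10.06, 10.21 and 10.14 in double siRNA arrays, 10.79, 10.84 and 10.80 with ETV6 siRNA, 10.92, 10.94 and 10.77 with NFKB1 siRNA, and 11.13, 10.91 and 10.81 in control arrays. The double arrays were the lowest 3 of the 12, with a log2 change of −0.82 ± 0.08 against control (adjusted p = 4.79e-06). U2AF1, the small subunit that reads the AG at the intron's end, changed by −0.13 (adjusted p = 0.0172, and 0.0516 without the first double array).

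Among the 11 SR and TRA2 genes 7 rose and 1 fell, beside 31.9% and 49% of all genes. The family's median was 0.27 in the brightest probe sets, and 6 rose and 2 fell where each array was shifted to the same median. SRSF6 read 10.37, 10.39 and 10.38 in double siRNA arrays, 9.48, 9.65 and 9.51 with ETV6 siRNA, 9.37, 9.39 and 9.50 with NFKB1 siRNA, and 9.26, 9.71 and 9.80 in control arrays. SRSF11 read 11.52, 11.32 and 11.47 in double siRNA arrays, 10.42, 10.81 and 10.39 with ETV6 siRNA, 10.19, 10.27 and 10.46 with NFKB1 siRNA, and 10.55, 10.71 and 10.89 in control arrays. TRA2A, a sequence-specific exon activator, read 9.83, 9.80 and 9.71 in double siRNA arrays, 9.20, 9.37 and 9.24 with ETV6 siRNA, 9.11, 9.12 and 9.27 with NFKB1 siRNA, and 9.13, 9.18 and 9.28 in control arrays. In these 3 genes all double arrays lay above all control arrays. The log2 changes were 0.79 ± 0.11 for SRSF6 (adjusted p = 5.63e-05), 0.72 ± 0.12 for SRSF11 (adjusted p = 0.000182) and 0.58 ± 0.07 for TRA2A (adjusted p = 1.12e-05). The mean over the probe sets of SRSF6, of which the other changed by −0.25, gave only 0.27. SRSF10, TRA2B, SRSF3 and SRSF1 rose by 0.34, 0.31, 0.27 and 0.22, the last not called where each array was shifted to the same median (adjusted p = 0.187). The mean of the probe sets gave 0.78 for SRSF10, 0.51 for SRSF3 and 0.55 for SRSF1. SRSF7 fell by 0.24 in the probe set used, while its other 3 probe sets gave 0.74, 0.32 and −0.12. With the mean of its probe sets SRSF7 was called higher (0.17, adjusted p = 0.00439), so its direction rests on the choice of probe set. SRSF4, SRSF5 and SRSF8 were at −0.02, −0.08 and −0.04 and were not called.

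**Figure D2:**
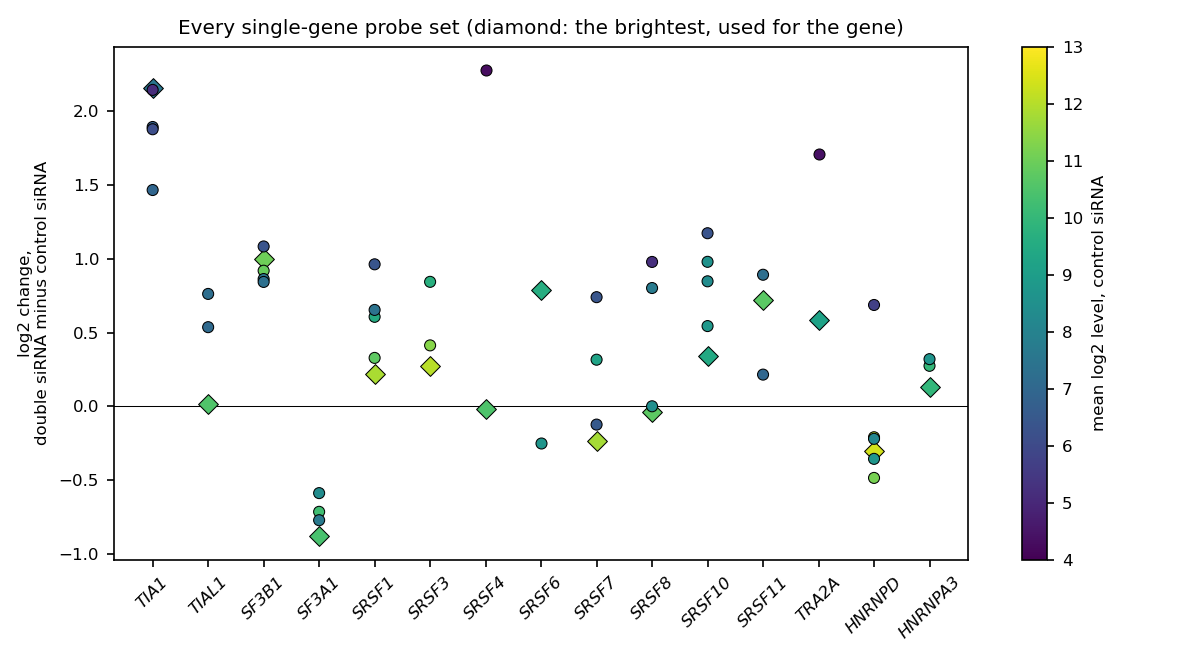
Log2 change in double siRNA minus control siRNA arrays (vertical axis) for every single-gene probe set of 15 splicing genes, with diamonds for the brightest probe set, used for the gene, and the colour giving its mean log2 level in control arrays. The probe sets of TIA1, SF3B1 and SF3A1 lie on 1 side of 0, and those of SRSF4, SRSF6 and SRSF7 lie on both.

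Probe sets mattered in this family and in other splicing genes. The dim second probe set of SRSF4 averaged 6.58 in double siRNA arrays and 4.30 in control arrays, a difference of 2.28, while the bright one changed by −0.02 and was not called. Of 38 genes with more than 1 probe set over the filter, 30 had 1 sign in all of them. The dimmest probe set of a gene changed more upward than the brightest in 36 of 49 splicing genes (73.5%) and in 2546 of 4482 genes of the table (56.8%). Since the lowest values on the double arrays were also raised, upward changes of dim probe sets moved with that property, and its part in them was not tested.

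Of 19 hnRNP genes 5 rose and 9 fell, near the 31.9% and 49% of all genes. The family's median was −0.08, and none passed a fold of 1.5 in its brightest probe set. With the mean of the probe sets, HNRNPLL was at 0.83 (adjusted p = 2.02e-05), against 0.19 in the brightest, and HNRNPDL at 0.48, against 0.18. In HNRNPA2B1, HNRNPH1, HNRNPH3 and HNRNPK the probe sets over the filter did not share 1 sign. HNRNPH3 was at −0.27 in the brightest and at 0.21 in another. HNRNPR rose most, to 12.38, 12.43 and 12.41 in double siRNA arrays against 12, 11.93 and 12.16 in control arrays (log2 change 0.37, adjusted p = 0.000202). HNRNPF, which binds runs of guanine, rose by 0.31. The lowest were HNRNPUL1 at −0.45, HNRNPL, a CA-repeat binder, at −0.44 and HNRNPUL2 at −0.43. PTBP1, which represses exons through pyrimidine tracts, read 11.52, 11.68 and 11.55 in double siRNA arrays, against 12.34, 12.14 and 12.16 in control arrays, a log2 change of −0.63 (adjusted p = 4.94e-06). The split of the hnRNP genes moved with scaling, to 2 higher and 12 lower where arrays were shifted to the same median.

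Among the 11 Sm and snRNP genes 1 rose and 7 fell, beside 31.9% and 49% of all genes. SNRPA, a stem-loop binder of the U1 snRNP, read 8.99, 9.04 and 9.16 in double siRNA arrays, 9.92, 9.91 and 9.90 with ETV6 siRNA, 9.92, 9.96 and 9.83 with NFKB1 siRNA, and 10.05, 9.85 and 9.70 in control arrays, with no overlap. Its log2 change was −0.80 ± 0.08 (adjusted p = 5.17e-06). SNRPB, which gives the SmB proteins of the Sm ring, changed by −0.73, and SNRPC, which helps U1 hold the 5′ splice site, by −0.38. The other Sm ring genes moved less: SNRPD1, SNRPD2 and SNRPE fell by 0.18, 0.22 and 0.23, and SNRPD3, SNRPF and SNRPG were not called. Of the pair of U2-specific proteins, SNRPB2 rose by 0.39 and SNRPA1 fell by 0.21. The calls of SNRPD1 and SNRPE were lost with the mean of their probe sets (adjusted p = 0.239 and 0.166), and that of SNRPA1 without the first double array (adjusted p = 0.0506).

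PRPF19, the ubiquitin ligase at the heart of the complex that activates the spliceosome, had the smallest adjusted p of the 75 with double siRNA. It read 9.22, 9.18 and 9.21 in double siRNA arrays, 10.05, 9.96 and 10.00 with ETV6 siRNA, 10.03, 10.04 and 10.02 with NFKB1 siRNA, and 10.12, 10.02 and 10.04 in control arrays. The other 9 arrays lay within a narrow band and the double arrays well under it, with a log2 change of −0.86 ± 0.04 (adjusted p = 7.67e-07). For PRPF19 the third control array leaned only slightly toward the double arrays, at −0.03 from the mean of the other controls. PRPF6, which bridges U5 and U4/U6, read 9.62, 9.61 and 9.58 in double siRNA arrays against 10.21, 10.21 and 10.16 in control arrays (−0.59). PRPF8, the scaffold of the catalytic centre, changed by −0.46, and PRPF31 and PRPF4 of the tri-snRNP by −0.40 and −0.34. PRPF18, a factor of the second catalytic step, went the other way, with 8.68, 8.84 and 8.53 in double siRNA arrays and 7.98, 7.96 and 7.76 with ETV6 siRNA, against 7.79, 8.02 and 8.39 in control arrays (0.62 ± 0.13, adjusted p = 0.000987).

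Of the 12 LSM genes, not all of them parts of the spliceosome, 2 rose and 7 fell, beside 31.9% and 49% of all genes. LSM2, shared by the nuclear U6 ring and the cytoplasmic ring that promotes mRNA decapping, read 9.29, 9.38 and 9.41 in double siRNA arrays, 10.14, 10.10 and 10.16 with ETV6 siRNA, 10.31, 10.39 and 10.40 with NFKB1 siRNA, and 10.42, 10.36 and 10.07 in control arrays. Its log2 change, −0.92 ± 0.08 (adjusted p = 2.52e-06), was the lowest of the 75. LSM10, a ring protein of the U7 snRNP that matures histone mRNA, changed by −0.74. The ring genes LSM4, LSM7 and LSM3 fell by 0.40, 0.37 and 0.21. LSM1, found only in the cytoplasmic ring, rose by 0.30, and LSM6 rose by 0.18, a call that 6 of 22 alternative settings did not keep.

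**Figure D3:**
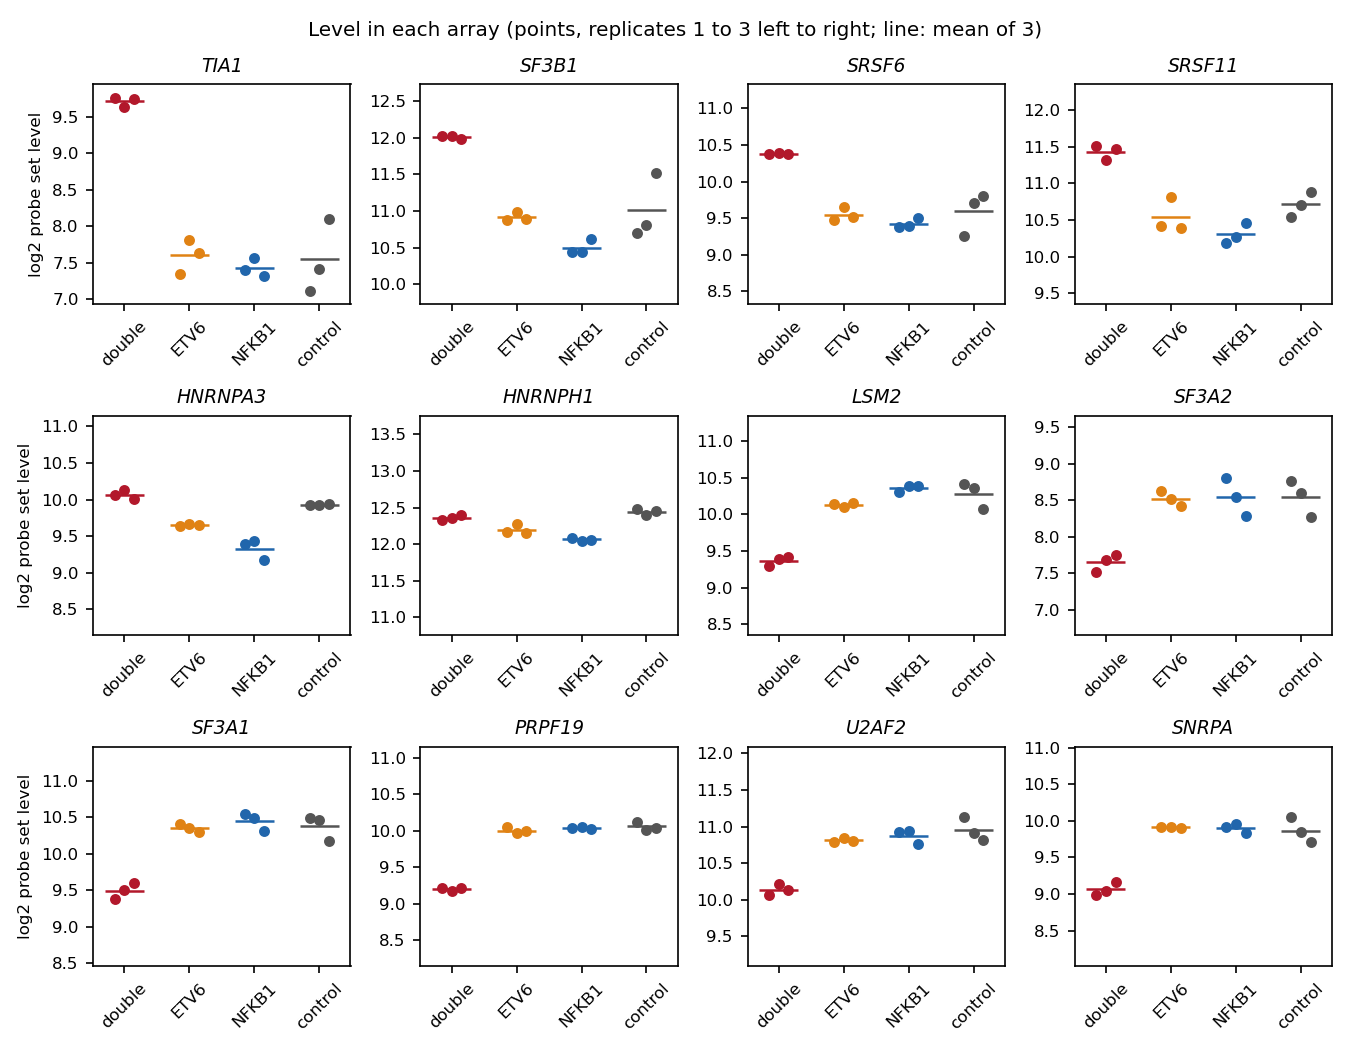
Log2 probe set level (vertical axis, each panel spanning 3 log2 units) of 12 splicing genes in each array, with points for replicates and a line at the mean of 3, for double, ETV6, NFKB1 and control siRNA. The double arrays of TIA1, SF3B1, SRSF6 and SRSF11 lie above the other 9, those of LSM2, SF3A2, SF3A1, PRPF19, U2AF2 and SNRPA lie below, and the NFKB1 siRNA arrays are the lowest for HNRNPA3 and HNRNPH1.

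The 5 genes too dim to be tested are given as levels. PTBP2, the neuronal paralog of PTBP1, read 7.42, 7.32 and 7.45 in double siRNA arrays, against 6.17, 6.41 and 6.37 in control arrays. PRPF39 read 7.86, 7.79 and 7.79 in double siRNA arrays, against 6.56, 6.40 and 7.24 in control arrays. PRPF38B read 7.71, 7.67 and 7.80 in double siRNA arrays, against 7.17, 7.41 and 7.13 in control arrays. In these 3 genes the double arrays lay above the controls, in arrays whose lowest values were also higher. LSM11, the partner of LSM10 in the U7 ring, read 7.29, 7.34 and 7.32 in double siRNA arrays and 6.40, 6.49 and 6.03 with NFKB1 siRNA, against 7.72, 7.89 and 7.71 in control arrays. PRPF40B overlapped, with 6.42, 6.58 and 6.44 in double siRNA arrays against 6.90, 6.68 and 6.40 in control arrays.

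NFKB1 siRNA alone gave a smaller and different picture. Of 75 genes 22 were called (29.3%), 4 higher and 18 lower, against 40.6% of all genes tested, 15.5% higher and 25.1% lower. The median was −0.03, against 0.01 over all genes. The lower genes included 6 of 19 hnRNP genes and 5 of 11 SR and TRA2 genes. Only 1 gene passed a fold of 1.5, downward, while over all genes tested 607 did so downward and 28 upward. The direction of the milder calls depended on scaling: where each array was shifted to the same median, which put the median of all genes at 0.10, 12 were higher and 13 lower, and after quantile normalization 7 and 16.

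HNRNPA3, a close relative of HNRNPA1, changed most with NFKB1 siRNA. It read 9.39, 9.43 and 9.17 with NFKB1 siRNA and 9.64, 9.66 and 9.65 with ETV6 siRNA, against 9.92, 9.93 and 9.93 in control arrays. No array of either knock-down overlapped the controls. The log2 change with NFKB1 siRNA was −0.60 ± 0.06 (adjusted p = 3.57e-05, 1.51-fold lower), and its 3 probe sets gave −0.86 to −0.52. In double siRNA arrays it read 10.06, 10.13 and 10.00, above the controls by 0.13, which was not called (adjusted p = 0.0697). Its other probe sets, both over the filter, were higher by 0.27 and 0.32, with every double array above every control array.

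HNRNPH1, a binder of guanine runs, read 12.09, 12.04 and 12.06 with NFKB1 siRNA and 12.16, 12.27 and 12.15 with ETV6 siRNA, against 12.48, 12.40 and 12.45 in control arrays. Its log2 change with NFKB1 siRNA was −0.38 ± 0.05 (adjusted p = 0.000122). LSM14A, a protein of cytoplasmic P-bodies and no part of the spliceosome, read 9.83, 9.83 and 10.03 with NFKB1 siRNA, against 10.35, 10.31 and 10.41 in control arrays, a change of −0.46 (adjusted p = 0.000294). In the other groups HNRNPH1 read 12.33, 12.36 and 12.40 with double siRNA, and LSM14A read 10.39, 10.42 and 10.38 with double siRNA and 10.20, 10.39 and 10.25 with ETV6 siRNA. All 3 genes kept their calls with NFKB1 siRNA in all 22 alternative settings.

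Of the 22 genes called with NFKB1 siRNA, 9 kept the call in all 22 alternative settings, HNRNPR (−0.33) and SRSF1 (−0.37) among them. The calls of SF3B1, PRPF18 and SRSF11, which also fell, rested more on single arrays. SF3B1 changed by −0.51 (adjusted p = 0.0262), by −0.26 without the third control array (adjusted p = 0.00969) and by −0.48 without the first or second NFKB1 siRNA array, where it was not called (adjusted p = 0.0773 and 0.0779). PRPF18 read 7.66, 7.69 and 7.57 with NFKB1 siRNA, a change of −0.43 (adjusted p = 0.0225), and −0.27 without the third control array (adjusted p = 0.0576). It also lost the call without the first NFKB1 siRNA array or the third (adjusted p = 0.0524 and 0.0624). SRSF11 read 10.19, 10.27 and 10.46, a change of −0.41 (adjusted p = 0.0193), with adjusted p = 0.0610 without the third control array, 0.0743 without the first and 0.0604 without the second NFKB1 siRNA array.

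The 4 genes that rose with NFKB1 siRNA did so slightly. SF3B2, a subunit of SF3B, read 10.80, 10.89 and 10.84 with NFKB1 siRNA, against 10.77, 10.57 and 10.56 in control arrays (0.21, adjusted p = 0.0165). SF3B6 read 12.19, 12.17 and 12.13 with NFKB1 siRNA, against 11.97, 11.91 and 12.05 in control arrays (0.19, adjusted p = 0.00931). All NFKB1 siRNA arrays lay above the controls in both. In the other groups SF3B2 read 10.41, 10.38 and 10.38 with double siRNA and 10.77, 10.67 and 10.69 with ETV6 siRNA, and SF3B6 read 11.96, 11.95 and 11.92 with ETV6 siRNA. SRSF4 read 10.64, 10.68 and 10.69 with NFKB1 siRNA, against 10.59, 10.38 and 10.48 in control arrays, and SRSF8 read 10.89, 10.93 and 10.94 with NFKB1 siRNA, against 10.82, 10.77 and 10.66 in control arrays. These SR protein genes changed by 0.19 (adjusted p = 0.0230) and 0.17 (adjusted p = 0.0211). SRSF4 read 10.48, 10.41 and 10.50 with double siRNA and 10.59, 10.60 and 10.66 with ETV6 siRNA, and SRSF8 read 10.72, 10.70 and 10.72 with double siRNA and 10.81, 10.75 and 10.84 with ETV6 siRNA. None of the 4 kept its call in a fit of the NFKB1 siRNA and control arrays alone (adjusted p = 0.0846 for SF3B2, 0.0694 for SF3B6, 0.0965 for SRSF4 and 0.100 for SRSF8). With the mean of its probe sets SRSF8 was at 0.02 (adjusted p = 0.845). Without the second NFKB1 siRNA array the adjusted p was 0.0623 for SF3B2, 0.0631 for SRSF4 and 0.0610 for SRSF8, and without the second control array 0.0566 for SF3B2 and 0.0836 for SRSF4. SRSF4 was also lost without the third NFKB1 siRNA array (adjusted p = 0.0550), and SRSF8 without that array (0.0515) or the third control array (0.0660).

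**Figure D4:**
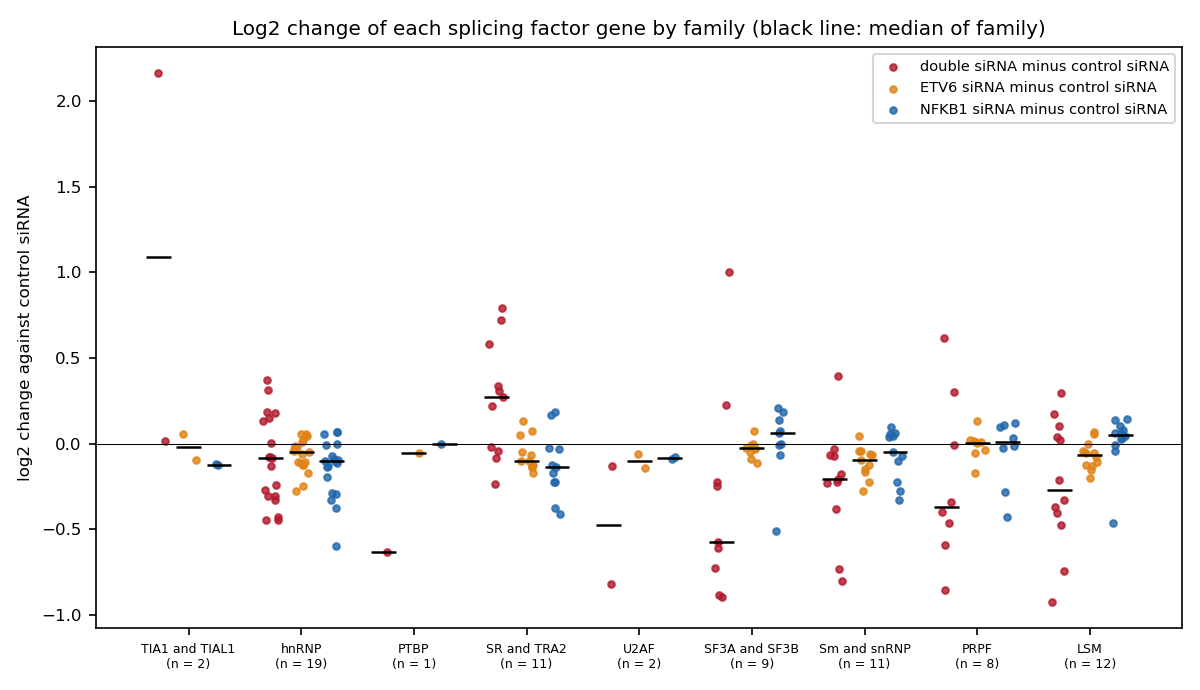
Log2 change against control siRNA (vertical axis) of each tested splicing gene by family, for double siRNA, ETV6 siRNA and NFKB1 siRNA, with a black line at the median of the family. The changes with ETV6 siRNA lie between −0.28 and 0.13, those with NFKB1 siRNA between −0.60 and 0.21, and those with double siRNA between −0.92 and 2.16.

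ETV6 siRNA alone left few calls. Of 75 genes 3 were called (4%), all lower, against 10.7% of all genes tested, 4.38% higher and 6.28% lower. An unadjusted p under 0.05 was found for 12 of the 75, against 1807 of the 7760 genes tested. The 3 called genes were HNRNPA3 at −0.28 (adjusted p = 0.0165), HNRNPH1 at −0.25 (adjusted p = 0.00752) and SNRPE at −0.28 (adjusted p = 0.0135). SNRPE, an Sm ring protein, read 12.53, 12.53 and 12.47 in double siRNA arrays, 12.32, 12.58 and 12.48 with ETV6 siRNA and 12.50, 12.50 and 12.53 with NFKB1 siRNA, against 12.74, 12.72 and 12.75 in control arrays. HNRNPA3 lost the call without the first or the third ETV6 siRNA array (adjusted p = 0.0586 and 0.0563). Both SNRPE and HNRNPH1 lost it in a fit of the groups compared alone (adjusted p = 0.112 and 0.0808). No gene of the SR, U2AF, SF3, PRPF or LSM families was called with ETV6 siRNA.

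These comparisons share the control arrays, so the values are set side by side without an overlap. SF3B1 changed by 1.00 with double siRNA, −0.09 with ETV6 siRNA and −0.51 with NFKB1 siRNA. SRSF11 changed by 0.72, −0.17 and −0.41 in the same order, and HNRNPR by 0.37, −0.12 and −0.33. PRPF19 changed by −0.86, −0.06 and −0.03, and LSM2 by −0.92, −0.15 and 0.08.

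Set directly against the single knock-downs, double siRNA differed as widely. Against ETV6 siRNA 56 of 75 genes were called, 22 higher and 34 lower, with 86.2% of all genes called, 34.9% higher and 51.2% lower. Against NFKB1 siRNA 61 were called, 24 higher and 37 lower, with 89.1% of all genes called, 37.7% higher and 51.4% lower, and 17 and 47 where arrays were shifted to the same median. TIA1 was higher by 2.11 against ETV6 siRNA (adjusted p = 8.31e-06 with no filter) and by 2.28 against NFKB1 siRNA (adjusted p = 1.72e-06 with no filter). In 18 genes the 3 double arrays lay above all other 9, and in 34 below, together 69.3% of the genes tested against 75.3% of all genes. ETV6 siRNA against NFKB1 siRNA gave 17 calls, 9 higher and 8 lower, with 34.9% of all genes called, 21.8% higher and 13.1% lower. The split turned to 3 higher and 19 lower where arrays were shifted to the same median. The hnRNP genes gave 6 of the 9 higher calls (31.6% of the family, against 21.8% of all genes), HNRNPA3 at 0.32 among them. With arrays shifted to the same median only 1 hnRNP gene was higher and 2 were lower. LSM14A was higher by 0.38 (adjusted p = 0.00127).

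The interaction asks whether the double change differs from the sum of the single ones, as double minus ETV6 minus NFKB1 plus control. It was called for 58 of 75 genes (77.3%), 26 higher and 32 lower, against 86.3% of all genes tested, 36.5% higher and 49.8% lower. Where arrays were shifted to the same median 18 were higher and 39 lower. The smallest adjusted p belonged to PRPF19 (−0.77, adjusted p = 2.77e-06), HNRNPA3 (1.01, 3.95e-06), PRPF6 (−0.72, 4.15e-06) and HNRNPR (0.82, 1.12e-05). HNRNPR read 12.38, 12.43 and 12.41 in double siRNA arrays, 11.83, 12 and 11.89 with ETV6 siRNA, 11.74, 11.70 and 11.68 with NFKB1 siRNA, and 12, 11.93 and 12.16 in control arrays. PRPF6 read 10.29, 10.17 and 10.17 with ETV6 siRNA and 10.28, 10.32 and 10.31 with NFKB1 siRNA, both above its double arrays.

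Other genes of splicing, 72 tested of 89 listed, were read beside them. With double siRNA 21 rose and 36 fell (79.2% called), with NFKB1 siRNA 10 rose and 24 fell (47.2%), and with ETV6 siRNA 3 fell. Over all genes tested 80.9%, 40.6% and 10.7% were called in these comparisons. MBNL1, a regulator of muscle and brain exons, read 11.14, 11.17 and 11.27 in double siRNA arrays, against 9.85, 9.92 and 10.31 in control arrays (log2 change 1.17). SART1 of the tri-snRNP and SNRNP25 of the minor spliceosome changed by −0.79 and −0.59, and DYRK1A, a kinase of SR proteins, by 0.68. All 4 had adjusted p under the threshold, from 2.75e-06 to 5.48e-06. Among 6 SR protein kinases 4 rose and 1 fell with double siRNA, beside 31.9% and 49% of all genes. CDC5L, a partner of PRPF19, read 8.91, 8.87 and 8.96 with NFKB1 siRNA, against 9.46, 9.57 and 9.75 in control arrays (−0.68, adjusted p = 2.26e-05). SFPQ and the helicase gene DDX46 changed by −0.38 and −0.46 with NFKB1 siRNA, and CLK2, another SR protein kinase, by 0.45. With ETV6 siRNA, SMNDC1, which aids spliceosome assembly, changed by −0.39 (adjusted p = 0.000342), DDX46 by −0.27 and SNW1 by −0.26.

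The promoter windows of 71 of the 80 genes were in the table, those of HNRNPA1, LSM1, LSM6, LSM14A, PRPF3, PRPF39, SF3B3, SNRPD1 and TRA2A not among them. The ETS core CCGGAAG, on either strand, lay in 22 of the 71 (31.0%), against 18.1% of the 6576 tested genes with a window and 8.82% of all 27305 windows. It lay in 5 of 16 genes that rose with double siRNA (31.2%), in 13 of 37 that fell (35.1%) and in 4 of 14 that were not called (28.6%). The NF-kB motif lay in 4 of 71 (5.63%), against 2.04% of tested genes and 1.73% of all windows, SF3B1 being 1 of the 4. These matches describe the letters in the windows and show no binding.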

How the data were processed

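Total RNA of 12 samples, 1 array each, was labelled with biotin and hybridized to Affymetrix arrays, per the labels' protocols. Nothing in the labels says that replicates came from separate cultures, and the spread that p-values rest on may be technical. The authors deposited log2 probe set values, and the sources used here do not give the background correction, summarization and normalization behind them. The number of arrays, 3 a group, limits the precision.

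The table holds 19520 probe sets, of which 17313 name 1 gene. The brightest per gene was kept, and a filter at the 25th percentile of mean level (log2 7.54) left 7760 genes, NFKB1 among them at 7.07, since both siRNA targets were kept at any level. Group means were fitted to the 12 arrays together by limma 3.58.1 (lmFit and eBayes, R 4.3.3), with 8 residual degrees of freedom. Tests were two-sided, with Benjamini-Hochberg adjustment over all genes of a comparison and a threshold of 0.05. The fit was tested on simulated data. Exact permutation of 3 against 3 arrays has a smallest p of 0.1 and was not used.

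ETV6 and NFKB1 were always named. Values in every array were given for the 6 highest and 6 lowest called changes in each comparison with control among genes whose arrays did not overlap, for TIA1 and TIAL1, and for the 4 smallest adjusted p of the interaction. Up to 4 of the other splicing genes were named per comparison, and further members were named to describe their families. Members and lists were chosen with earlier results of these data known. Alternatives changed the scaling, the filter, the choice of probe set, the variance model, the replicate block and the arrays included. Promoter letters came from RefSeq on GRCh38.p14, and all 80 symbols matched RefSeq.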

Additional observations from a re-analysis of the deposited data

Results flagged for a closer look

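The interaction, a test of whether the NFKB1 siRNA effect differed with and without ETV6 siRNA, was called by limma for 58 of 75 splicing genes, against 86.3% of all genes tested, so a called interaction is the usual case in these arrays. Among the genes described in every array it was positive, on the log2 scale, for TIA1 (2.23), SF3B1 (1.6), SRSF11 (1.3), PRPF18 (1.21), SRSF6 (1.01), HNRNPA3 (1.01), HNRNPR (0.82), LSM14A (0.58), TRA2A (0.54), HNRNPH1 (0.54), SNRPE (0.28) and TIAL1 (0.23). It was negative for SF3A1 (−0.93), SNRPA (−0.89), SF3A2 (−0.87), LSM2 (−0.85), PRPF19 (−0.77), PRPF6 (−0.72), U2AF2 (−0.6), SF3B2 (−0.54), SRSF4 (−0.34) and SRSF8 (−0.26). TIA1 passed the filter on low levels only through its double arrays, and its interaction had an adjusted p of 4.56e-05 with no filter. Where each array was shifted to the same median, the interaction was 0.07 for SNRPE (adjusted p = 0.526) and 0.03 for TIAL1 (adjusted p = 0.787), and for TIAL1 it was not called after quantile normalization (0.13, adjusted p = 0.128) or without the third control and second ETV6 siRNA arrays together. With the mean of the probe sets SRSF4 and SRSF8 turned to 0.45 (adjusted p = 0.0146) and 0.32 (adjusted p = 0.00898). The double arrays also differed from the other 9 in poly-A spike levels, in the median of all probe sets and in the lowest values. These differences cannot be told apart from the double treatment.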

How the results depend on the processing

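The count of splicing genes called with double siRNA, 59, was 55 to 60 when 1 array at a time was left out, and 48 of the 59 genes were called in the same direction in every alternative that tested them. SRSF7, at −0.24, turned to a call of 0.17 with the mean of the probe sets (adjusted p = 0.00439), and the other 10 lost the call in at least 1. Leaving out 1 array gave 2 to 6 calls for ETV6 siRNA against control (3 in the full data), 15 to 26 for NFKB1 siRNA against control (22), 53 to 58 for double against ETV6 siRNA (56), 58 to 61 for double against NFKB1 siRNA (61), 5 to 25 for ETV6 against NFKB1 siRNA (17) and 55 to 58 for the interaction (58). The lowest of these, 5, came without the second ETV6 siRNA array, and the 25 without the third control array. For ETV6 siRNA against control the count was 5 with the mean of the probe sets, 16 with array weights, 5 with a trended and robust variance, 1 with the compared groups alone and 5 without the third control and second ETV6 siRNA arrays together. For NFKB1 siRNA it was 34 with array weights and 13 with the compared groups alone, and of its 22 genes 9 were called in the same direction in all alternatives. For ETV6 against NFKB1 siRNA it was 33 with array weights and 27 with a trended and robust variance. The cause of these shifts was not tested, also where arrays or groups were left out and the fit had fewer arrays. With the mean of the probe sets, SRSF4 and SRSF8 with double siRNA turned to 1.13 and 0.44, both not called with the brightest probe set, and the dim probe sets carried that change. With the replicate number as a block, the pairing gave 58, 3 and 22 calls for double, ETV6 and NFKB1 siRNA against control, 56 and 61 for double against ETV6 and NFKB1 siRNA, 16 for ETV6 against NFKB1 siRNA and 57 for the interaction. A pairing by number was not clear in the correlations. Of 18 same-numbered pairs 5 correlated over 0.1 (r from −0.516 to 0.482), and an array correlated best with its own number in 11 of 36 cases. With 3 arrays a group, such correlations cannot decide whether the numbers mark a pairing. Dim probe sets limit what can be said of PTBP2, PRPF39, PRPF38B, LSM11 and PRPF40B.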
